A study of Mus musculus with 150 samples.

Results

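The 10 genes described here encode parts of insulin-like growth factor (IGF) signalling: the ligand gene Igf1, the receptor genes Igf1r and Igf2r, the binding protein genes Igfbp2, Igfbp3, Igfbp4 and Igfbp5, the protease genes Pappa and Pappa2, and Stc2, whose product inhibits those proteases. They are 10 of the 54082 genes in the count table, taken by name. They were selected on their measured levels in these same cells, with Ntrk2-dominant and Ntrk3-dominant neurons in view. Their levels by neuron class are therefore given as a description, with no test. The data are Smart-seq libraries of polyA RNA from single mouse somatosensory neurons, 1 cell per sample, from CD1 mice of Charles River that carried no transgene or other treatment named in the labels. Of 150 cells, 45 were labelled by hairy skin, 1 by both skin types and the rest by glabrous (hairless) skin, and the labels do not state how that label was decided for a neuron. Litters numbered 10, with 33 cells taken at postnatal day 4 and the rest at postnatal day 5, on 2 plates and in 5 cDNA batches. Litter names that join letters, such as E_F_G, were each taken as 1 litter.

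IGF1 is a secreted growth factor that acts through the receptor tyrosine kinase IGF1R, and in sensory neurons it is known for promoting survival and axon growth. Most IGF outside cells is held by binding proteins, and the metalloproteases PAPP-A (from Pappa) and PAPP-A2 (from Pappa2) cut some of these and so free the ligand. PAPP-A is known to cut IGFBP4 and IGFBP5, PAPP-A2 to cut IGFBP3 and IGFBP5, and stanniocalcin-2 (from Stc2) to block both enzymes.

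Promoters are shown for the 3 members whose levels differed most visibly between neuron classes below: Igf1, highest in Ntrk2-dominant cells, Pappa2, highest in Ntrk3-dominant cells, and Igfbp2, highest in Tafa4-positive cells. Each is the RefSeq stretch of 300 bases in GRCm38.p6, 250 before and 50 after the annotated start, written 5′ to 3′ on the gene's strand, and capitals mark a match to one of the motifs searched. The Igf1 and Pappa2 windows lie inside the gene spans given below, not at the outer start of those spans. Their motifs and base content therefore describe these annotated starts only.
Igf1, chr10:87860861-87861160, plus strand: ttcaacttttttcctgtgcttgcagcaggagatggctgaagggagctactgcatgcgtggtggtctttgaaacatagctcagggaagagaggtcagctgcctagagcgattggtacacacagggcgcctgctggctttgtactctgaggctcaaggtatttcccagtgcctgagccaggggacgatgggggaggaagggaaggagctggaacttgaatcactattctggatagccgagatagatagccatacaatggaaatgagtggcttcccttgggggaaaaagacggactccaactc
Pappa2, chr1:158958126-158958425, minus strand: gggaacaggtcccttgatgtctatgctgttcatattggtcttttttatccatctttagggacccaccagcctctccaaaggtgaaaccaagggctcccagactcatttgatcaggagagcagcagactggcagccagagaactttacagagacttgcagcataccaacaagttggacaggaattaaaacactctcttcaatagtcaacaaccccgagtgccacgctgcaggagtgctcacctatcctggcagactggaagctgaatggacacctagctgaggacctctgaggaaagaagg
Igfbp2, chr1:72824230-72824529, plus strand: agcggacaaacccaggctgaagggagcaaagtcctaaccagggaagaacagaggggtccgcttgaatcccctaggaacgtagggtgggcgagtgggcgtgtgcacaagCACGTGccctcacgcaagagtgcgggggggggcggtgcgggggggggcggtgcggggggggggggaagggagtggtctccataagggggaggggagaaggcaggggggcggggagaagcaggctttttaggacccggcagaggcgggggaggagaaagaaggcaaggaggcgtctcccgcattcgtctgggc
A Runx core was searched on both strands as TGTGGT, which 16.8% of 32851 such promoters held. A TATA box was searched as TATAAA, held by 13.6%. An E-box was searched as CACGTG, held by 7.15%. The Igfbp2 window shown held 1 E-box and no other match, and the windows of Igf1 and Pappa2 held none of the 3, so no match overlapped another. A second RefSeq entry for Igfbp2 (chr1:72825137-72825436, not shown) held no match and was 57.3% G or C with 14 CpG dinucleotides. The Igfbp2 window shown was 67% G or C with 18 CpG dinucleotides, against 52.3% and 6 for Igf1, 49.7% and 2 for Pappa2, and a median of 52.7% and 7 over all promoters. Of the 10 members, 9 had an entry, and Pappa had none.

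Cells held between 395811 and 1053854 counts, with 4360 to 15865 detected genes, and no pair of cells held identical counts. Levels are CPM, counts scaled to the cell's total in the usual way, and the litter is the replicate in every mean, SD and test. Classes were set by marker genes outside the IGF list: cells with at least 500 CPM of the heavy neurofilament gene Nefh (A-fibre-like) were split by the receptor gene that led, each relative to its own 90th percentile, and those led by Ntrk2, Ntrk3 or Ret are described. The 46 Nefh-low cells were split by at least 100 CPM of Tafa4, then Mrgprd, then Calca. Such classes are ranges of a score: 4 cells had Nefh between 350 and 700 CPM, and in 18 Nefh-high cells the leading receptor was under 1.5 times the next. The classes described held 22 Ntrk2-dominant, 21 Ntrk3-dominant, 25 Ret-dominant, 20 Tafa4-positive, 6 Mrgprd-positive, 14 Calca-positive and 6 other Nefh-low cells. Levels by class and counts of cells below leave out the cell labelled with both skin types. Runx3, a transcription factor of Ntrk3 neurons, had a median of 59.4 CPM in Ntrk3-dominant cells and of 0 in every other class, and Th, a marker of C-fibre touch neurons, had a median of only 4.9 CPM in Tafa4-positive cells. Skin type was uneven over classes, since 0 of 45 hairy cells were Ntrk3-dominant and 14 of 20 Tafa4-positive cells were hairy. That 0 allows a share of up to 6.67% only if cells are taken as independent, and these cells share litters.

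Igf1 (chr10:87858265-87937042 in GRCm38, plus strand), the ligand, was detected in 79 cells, with no count in 70, and reached 10 CPM in 49. In Ntrk2-dominant cells it had a median of 142.1 CPM and a range of 0 to 481, and 17 of 22 reached 10 CPM. Summed per litter, the 7 litters with such cells held 0 CPM (L), 79.8 (C_D), 81.5 (P_Q), 91.8 (A_B), 128.8 (E_F_G), 141.4 (H) and 359 (I), a mean of 126.1 ± 112.4 (SD, n = 7). Litter L, at 0, and A_B contributed 1 Ntrk2-dominant cell each, so these 2 values are those of single neurons. A sum over cells cannot tell fewer expressing cells from less RNA per cell, and the counts of cells above 10 CPM stand beside the sums for that reason.

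Ntrk3-dominant cells came next among the named classes described, with an Igf1 median of 19.4 CPM, against 65.9 in the 6 other Nefh-low cells. Ntrk3-dominant cells had a range of 0 to 128.7, with 14 of 21 at 10 CPM or more. Their litters held 2.28 CPM (K), 2.34 (A_B), 23.04 (I), 32.7 (E_F_G), 50.3 (L), 67.2 (O), 87.2 (P_Q) and 126.7 (H), a mean of 48.97 ± 43.3 (SD, n = 8). Litters K, A_B, L, P_Q and H contributed 1 Ntrk3-dominant cell each, so the lowest and the highest of these values are those of single neurons. The litter values of the Ntrk2-dominant and Ntrk3-dominant classes overlapped. In the 6 litters with both, Igf1 was higher in Ntrk2-dominant cells in 4, by a mean of 0.84 on the log2(CPM + 1) scale with an SD of 3.75. The order of these 2 classes was thus not clear of the spread between litters.

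Among Ret-dominant cells Igf1 had a median of 1.14 CPM, but 3 of the 25 cells reached 198, 212 and 310 CPM, so the class held a few cells as high as the Ntrk2-dominant ones. The litter mean there was 25.5 ± 28.98 CPM (SD, n = 7), and Igf1 was lower than in Ntrk2-dominant cells in 5 of 5 litters with both, with a mean difference of 2.80 log2 units (SD 2.28). The litter means were 5.39 CPM in Calca-positive, 4.02 in Tafa4-positive and 3.91 in Mrgprd-positive cells. Igf1 was higher in Ntrk3-dominant than in Tafa4-positive cells in 7 of 7 litters, by 4.33 log2 units (SD 2.10). No pair of named classes next to each other in the order of Igf1 means was separated by more than the spread over litters.

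The Ntrk2-dominant class was not uniform for Igf1. Unsupervised clustering, made without any IGF gene, placed 16 of the 22 cells in 1 cluster, where Igf1 ran from 14.5 to 481 CPM with a median of 173. The other 6 fell in a cluster that was mostly of Ret-dominant cells, and there Igf1 had a median of 0.685 CPM, a highest value of 91.8 and 1 cell at 10 CPM or more. By skin type, the 17 glabrous Ntrk2-dominant cells had a median of 148.02 CPM with 15 at 10 CPM or more. The 5 hairy ones had a median of 7.73 CPM with 2 at 10 CPM or more, and 3 of the 5 were in the cluster of low Igf1, so skin type and cluster cannot be told apart in these cells.

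Igf1 overlaps the antisense gene Igf1os, and the library kit named in the labels does not mark the strand, but Igf1os had counts in 1 cell only. Macrophages and fibroblasts are also known to make Igf1. In Ntrk2-dominant cells 5 of 6 macrophage markers (Csf1r, Cd68, C1qa, C1qb and Lyz2) had a median of 0, and their sum ran from 0 to 46.5 CPM. Of 6 fibroblast markers 5 had a median above 0 there, Pdgfra being the one at 0, and their sum ran from 2.84 to 4526 CPM with a median of 157. Across those 22 cells, the Spearman correlation of Igf1 with the summed macrophage markers was 0.02, with fibroblast markers -0.06 and with satellite glia markers -0.30, as a description of cells that each share 1 library's depth. The part of RNA from these other cells in the level of Igf1 was not tested.

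**Figure D1:**
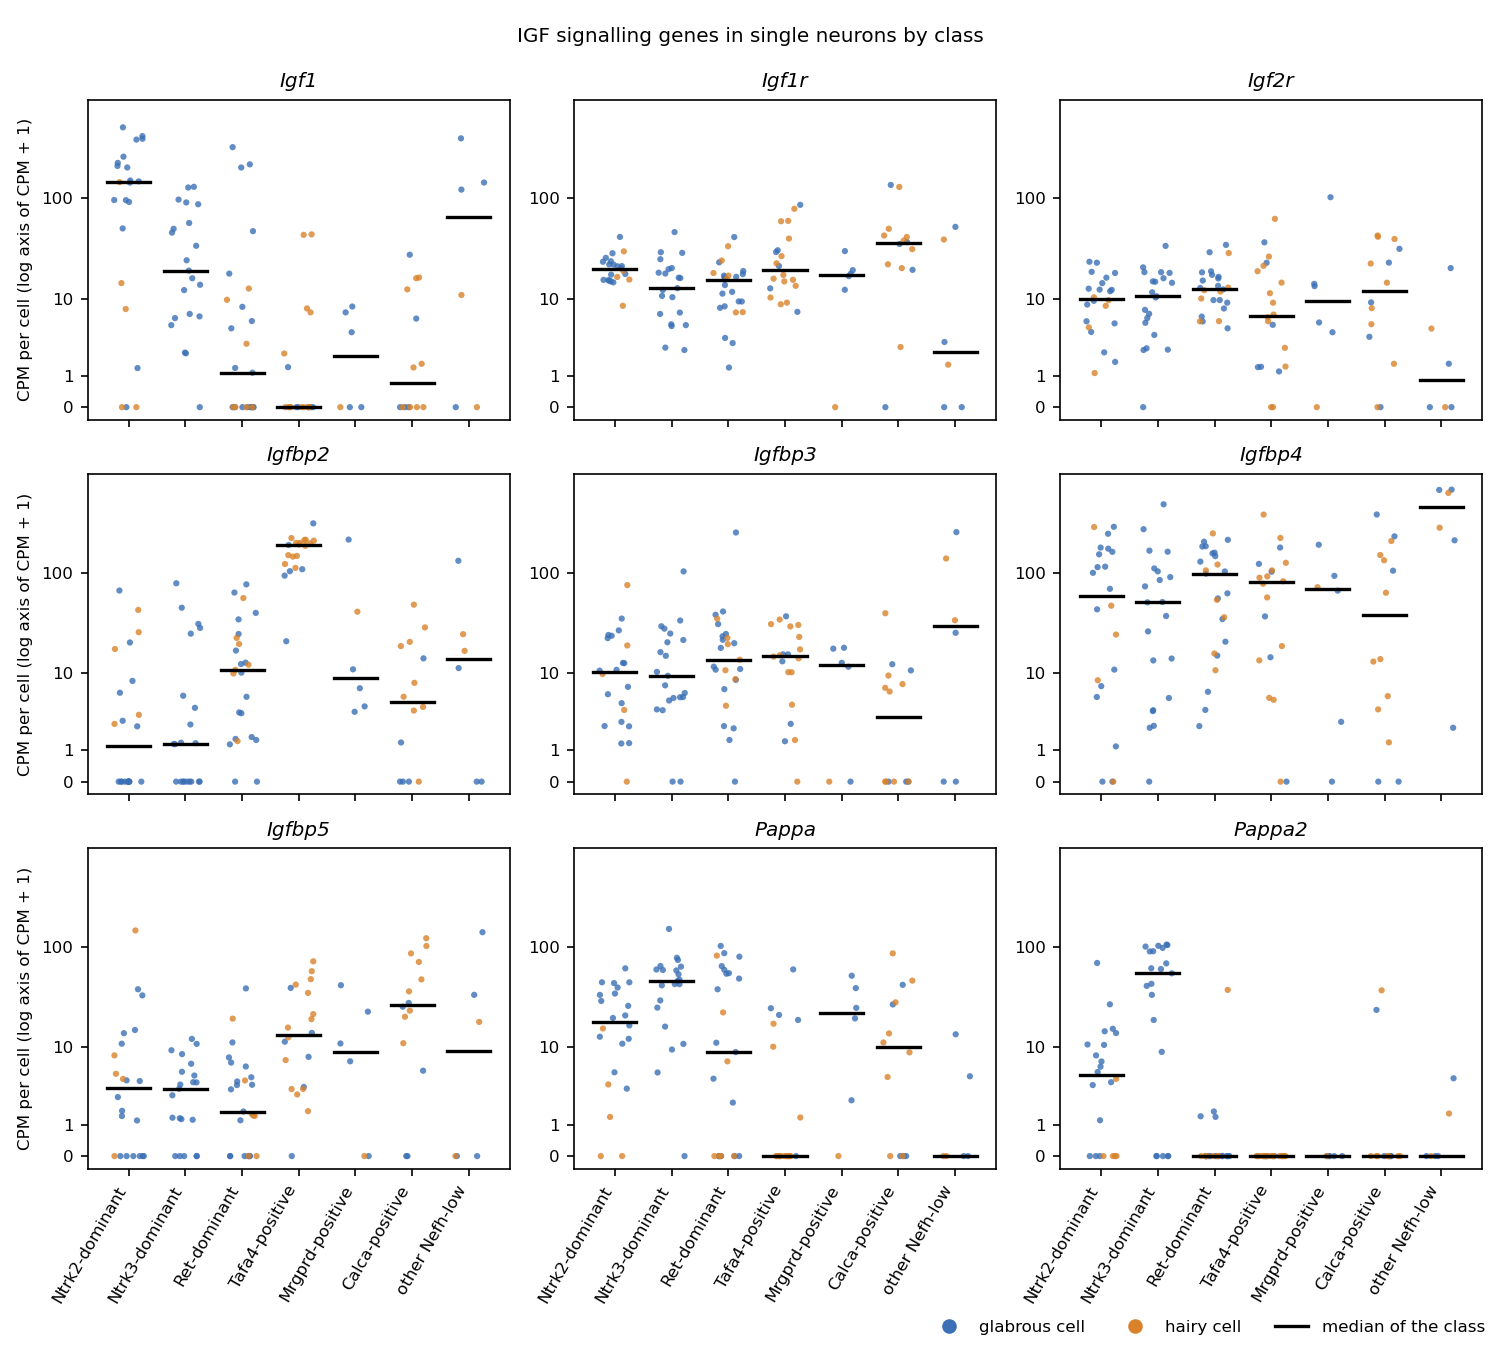
CPM per cell (log scale of CPM + 1, vertical axis) of the members in each neuron class described (horizontal axis), with glabrous and hairy cells in different colours and a line at the class median. Igf1 is highest in Ntrk2-dominant cells (median 142.1 CPM), Pappa2 in Ntrk3-dominant cells (median 55.6 CPM) and Igfbp2 in Tafa4-positive cells (median 183 CPM).

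The receptor genes were spread more evenly than the ligand. Igf1r (chr7:67952827-68233668, plus strand), the signalling receptor, had a count in all but 4 cells. It was highest in Calca-positive cells, with a median of 36.5 CPM and a litter mean of 44.5 ± 23.6 (SD, n = 6). The litter means of the other classes with 5 or more litters ran from 14.5 ± 9.27 CPM (Mrgprd-positive, n = 5) to 28.3 ± 16.2 (Tafa4-positive, n = 8), and the litter ranges of classes next to each other overlapped. Ntrk2-dominant cells had 20.2 ± 3.37 CPM (SD, n = 7), with 21 of 22 cells at 10 CPM or more. All 17 Ntrk2-dominant cells with Igf1 at 10 CPM or more also had Igf1r at that level.

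Igf2r (chr17:12682406-12769664, minus strand) encodes the receptor that takes up IGF2 for degradation and also carries lysosomal enzymes. It had a count in all but 10 cells, with class medians between 6.5 CPM (Tafa4-positive) and 12.5 (Ret-dominant) in the 6 named classes described. Litter means ran from 8.65 ± 4.36 CPM (Ntrk2-dominant, SD, n = 7) to 18.7 ± 9.54 (Calca-positive, SD, n = 6), with no class separated from the next. Igf2r overlaps the antisense gene Airn, which had a median of 4.90 CPM over all cells, so without strand the reads of the overlap cannot be told apart.

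Of the binding protein genes, Igfbp2 (chr1:72824503-72852474, plus strand) was highest in the Tafa4-positive cells, which resemble C-fibre touch neurons. All 20 of these cells reached 10 CPM, with a median of 183 CPM and a range of 21.2 to 298. Their 8 litters ran from 107.9 to 239 CPM, a mean of 168 ± 41.3 (SD, n = 8). In Ret-dominant cells the median was 10.8 CPM and the litter mean 18.4 ± 11.3 (SD, n = 7), and Igfbp2 was higher in Tafa4-positive cells in 5 of 5 litters with both, by a mean log2 difference of 3.11 (SD 0.69). It was higher in Tafa4-positive than in Calca-positive cells in 6 of 6 litters too, by 4.42 (SD 1.19).

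Igfbp2 was low in the named classes described that had most Igf1, but not only there. Its median was 1.19 CPM in Ntrk2-dominant and 1.29 CPM in Ntrk3-dominant cells, and 5 cells of each class reached 10 CPM. Calca-positive cells had medians of 4.86 CPM for Igfbp2 and 0.70 for Igf1. The 6 other Nefh-low cells had medians of 14.1 CPM for Igfbp2 and 65.9 for Igf1. Mrgprd-positive cells had a median of 8.89 CPM, but 1 of the 6 reached 208, which set their litter mean of 53.6 ± 87.8 CPM (SD, n = 5). Across all cells the Spearman correlation of Igfbp2 with Igf1 was -0.48 and with Pappa2 -0.54, and these cells share classes, litters and plates.

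Igfbp5 (chr1:72857932-72874884, minus strand) lies next to Igfbp2 in tail-to-tail order, with 5457 bases between their ends, and its pattern over classes was a different one. It was highest in Calca-positive cells, at a median of 27.2 CPM, 11 of 14 cells at 10 CPM or more and a litter mean of 40.6 ± 18.0 (SD, n = 6). Tafa4-positive cells had a median of 13.5 CPM and a litter mean of 19.5 ± 15.8 (SD, n = 8), overlapping the first. In the Nefh-high classes described the medians were 1.68 to 3.46 CPM. Within the Calca-positive class, the 9 hairy cells had a median of 48.5 CPM with 9 of 9 at 10 CPM or more, and the 5 glabrous cells a median of 5.59 CPM with 2 of 5. The 5 glabrous cells lay in 5 different unsupervised clusters, whereas 5 of the 9 hairy ones were in 1 cluster (Igfbp5 median 86.8 CPM) and 3 in another (48.5), so skin type and cluster cannot be told apart there.

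Igfbp3 (chr11:7206086-7213923, minus strand), the main carrier of IGF in blood, differed little between neuron classes. Its class medians ran from 3.16 CPM (Calca-positive) to 15.03 (Tafa4-positive) among the 6 named classes described, and the litter means from 7.28 ± 5.77 (SD, n = 6) to 21.98 ± 24.02 CPM (Ret-dominant, SD, n = 7). No class was separated from the next.

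Igfbp4 (chr11:99041244-99054392, plus strand) followed the RNA of satellite glia, the cells that wrap the bodies of sensory neurons. Across all cells its Spearman correlation with the summed satellite glia markers was 0.82. It was between 0.81 and 0.94 within 5 of the 6 named classes described and 0.48 within the other, the Calca-positive cells. The class medians of Igfbp4 did not keep the order of the median satellite glia sums. Among named classes they were 38.9 CPM beside a glial sum of 1272 CPM (Calca-positive), 51.4 beside 889 (Ntrk3-dominant) and 58.6 beside 1776 (Ntrk2-dominant). They were 69.5 beside 718 (Mrgprd-positive), 80.2 beside 1138 (Tafa4-positive) and 97.8 beside 1963 (Ret-dominant). The 6 other Nefh-low cells had 428 CPM of Igfbp4 beside 3563. The same correlation was 0.14 for Igf1, -0.29 for Pappa and -0.03 for Igfbp2. The part of glial RNA in the level of each gene was not tested.

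**Figure D2:**
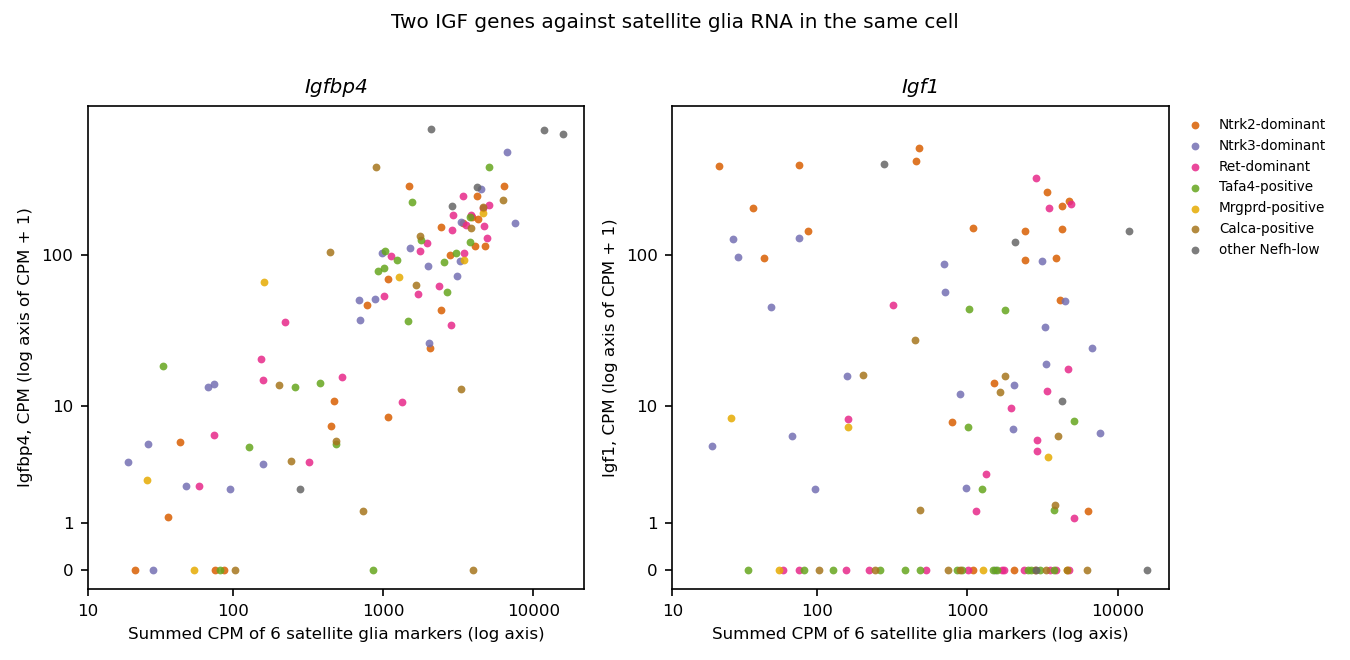
CPM of Igfbp4 (left) and Igf1 (right) in each cell (vertical axis, log scale of CPM + 1) against the summed CPM of 6 satellite glia markers (horizontal axis, log scale of CPM + 1), for the classes described, coloured by class. Igfbp4 climbs with the glial sum (Spearman 0.82 over all cells, plotted or not), whereas Igf1 does not (0.14).

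Of the protease genes, Pappa (chr4:65124174-65357509, plus strand) was widespread in Nefh-high neurons, but not only there. Ntrk3-dominant cells had a median of 46.7 CPM, with 18 of 21 cells at 10 CPM or more and a litter mean of 38.999 ± 25.9 (SD, n = 8). The median was 18.5 CPM in Ntrk2-dominant and 8.94 in Ret-dominant cells. Among Nefh-low cells it was 22.6 CPM in Mrgprd-positive cells, with 4 of 6 at 10 CPM or more. Calca-positive cells had a Pappa median of 10.1 CPM, with 7 of 14 at that level. Tafa4-positive cells, the cells richest in Igfbp2, had a Pappa median of 0 with 6 of 20 at 10 CPM or more, and Pappa was lower there than in Ret-dominant cells in 5 of 5 litters, with a log2 difference of -3.42 (SD 2.14).

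Pappa2 (chr1:158711727-158980490, minus strand) was far more restricted, with counts in 42 cells and 10 CPM or more in 26. Ntrk3-dominant cells held 15 of these 26, with a median of 55.6 CPM, and Ntrk2-dominant cells held 7, with a median of 4.95. By litter, Ntrk3-dominant cells held 0 CPM (A_B and K), 40.3 (I), 57.6 (E_F_G), 61.1 (L), 71.8 (O), 90.7 (H) and 98.1 (P_Q), a mean of 52.5 ± 37.2 (SD, n = 8). Ntrk2-dominant litters lay between 0 and 14.1 CPM, a mean of 7.24 ± 5.10 (SD, n = 7). The mean minus its SD in Ntrk3-dominant cells was above the mean plus SD in Ntrk2-dominant cells, though the litter ranges overlapped through A_B and K, each of which gave 1 Ntrk3-dominant cell. Litters H, L and P_Q also gave 1 such cell each, so the highest values, like those at 0, are those of single neurons. The Ntrk3-dominant level was the higher one in 5 of 6 litters with both.

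In the other classes described Pappa2 reached 10 CPM in 1 Ret-dominant cell (38.2 CPM) and in 2 Calca-positive cells. It had no count in 20 Tafa4-positive cells, which allows up to 15% of such cells to hold a count, for counting error only. Ntrk2-dominant cells exceeded Ret-dominant cells in 5 of 5 litters, by 2.89 log2 units (SD 0.70).

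**Figure D3:**
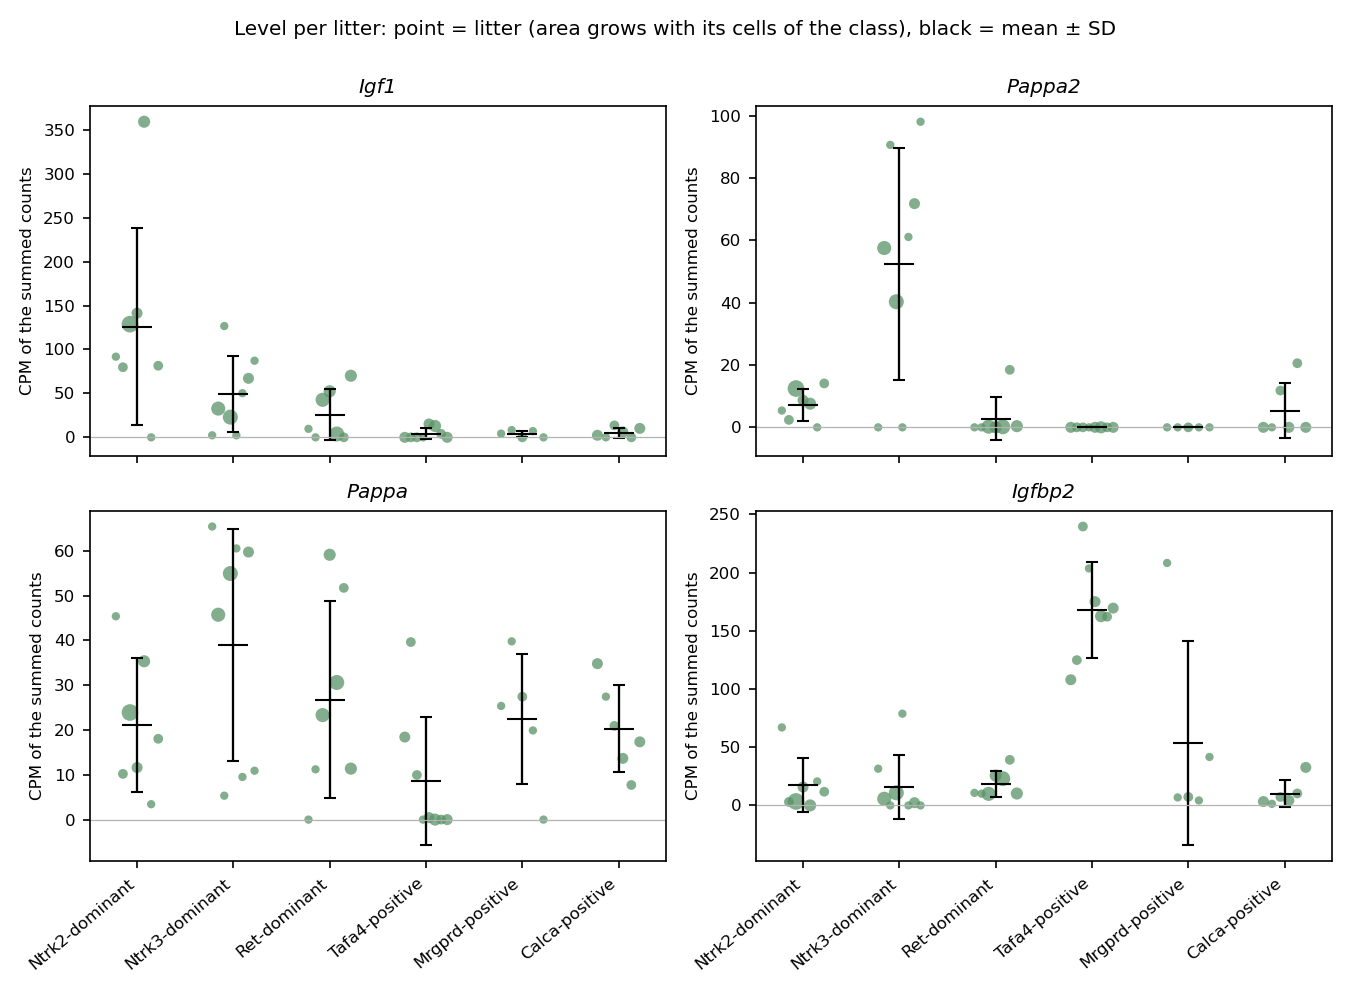
CPM of counts summed per litter (points, whose area grows with the number of cells) for Igf1, Pappa2, Pappa and Igfbp2 in each named class described, with the mean (line) and SD (bar) over litters. Pappa2 averages 52.5 CPM in Ntrk3-dominant cells with 2 litters at 0, and Igfbp2 averages 168 CPM in Tafa4-positive cells with every litter above 100.

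Stc2 (chr11:31357307-31370074, minus strand), the protease inhibitor, was at the limit of detection. It had 10 counts in all, in 4 cells, and a highest value of 7.29 CPM. No Ntrk2-dominant cell held a count, which allows a share of up to 13.6%, for counting error only. The related inhibitor gene Stc1 had counts in 22 cells, 10 of them among the 21 Ntrk3-dominant cells.

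The levels of the ligand and the second protease were related over the cells of the 2 classes with most of both, and less closely within the main cluster of each class. The Spearman correlation of Igf1 with Pappa2 was 0.72 across 22 Ntrk2-dominant cells and 0.72 across 21 Ntrk3-dominant cells, and all 14 Ntrk3-dominant cells with Igf1 at 10 CPM or more had Pappa2 at that level. Each class held a main cluster of 16 cells and a few cells outside it that were mostly low in both genes, so the correlation was also taken within the main cluster, a step added after the values were seen. There it was 0.40 in Ntrk2-dominant and 0.41 in Ntrk3-dominant cells. Igf1 with Pappa gave 0.61 in Ntrk2-dominant and -0.60 in Ntrk3-dominant cells, and 0.37 and -0.53 within the main clusters. Pappa with Pappa2 gave 0.62 and -0.40, and 0.31 and -0.19 within the main clusters. Igf1 with its receptor Igf1r gave 0.08 and -0.05 over the whole classes. The difference between the classes in these correlations was not tested, and cells of a class share litters and plates.

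The Ntrk3-dominant cells separated into 2 sets when split by Runx3 at 10 CPM, a split chosen after the values were seen. In 16 cells with Runx3 between 34.3 and 94.9 CPM, Pappa2 ran from 8.98 to 105.7 CPM with a median of 65.8, and Igf1 from 5.12 to 128.7 with a median of 40.2. In the 5 cells with Runx3 under 10 CPM, Pappa2 had no count in any, Igf1 was at most 6.83 CPM, Igfbp2 had a median of 31.5 CPM against 0 in the first set, and Pappa was between 42.4 and 78.7 CPM. The 16 cells of the first set made up 1 unsupervised cluster among Ntrk3-dominant cells, and the 5 others were scattered over 4 clusters. Both litters at 0 for Pappa2 belonged to the Runx3-low set.

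**Figure D4:**
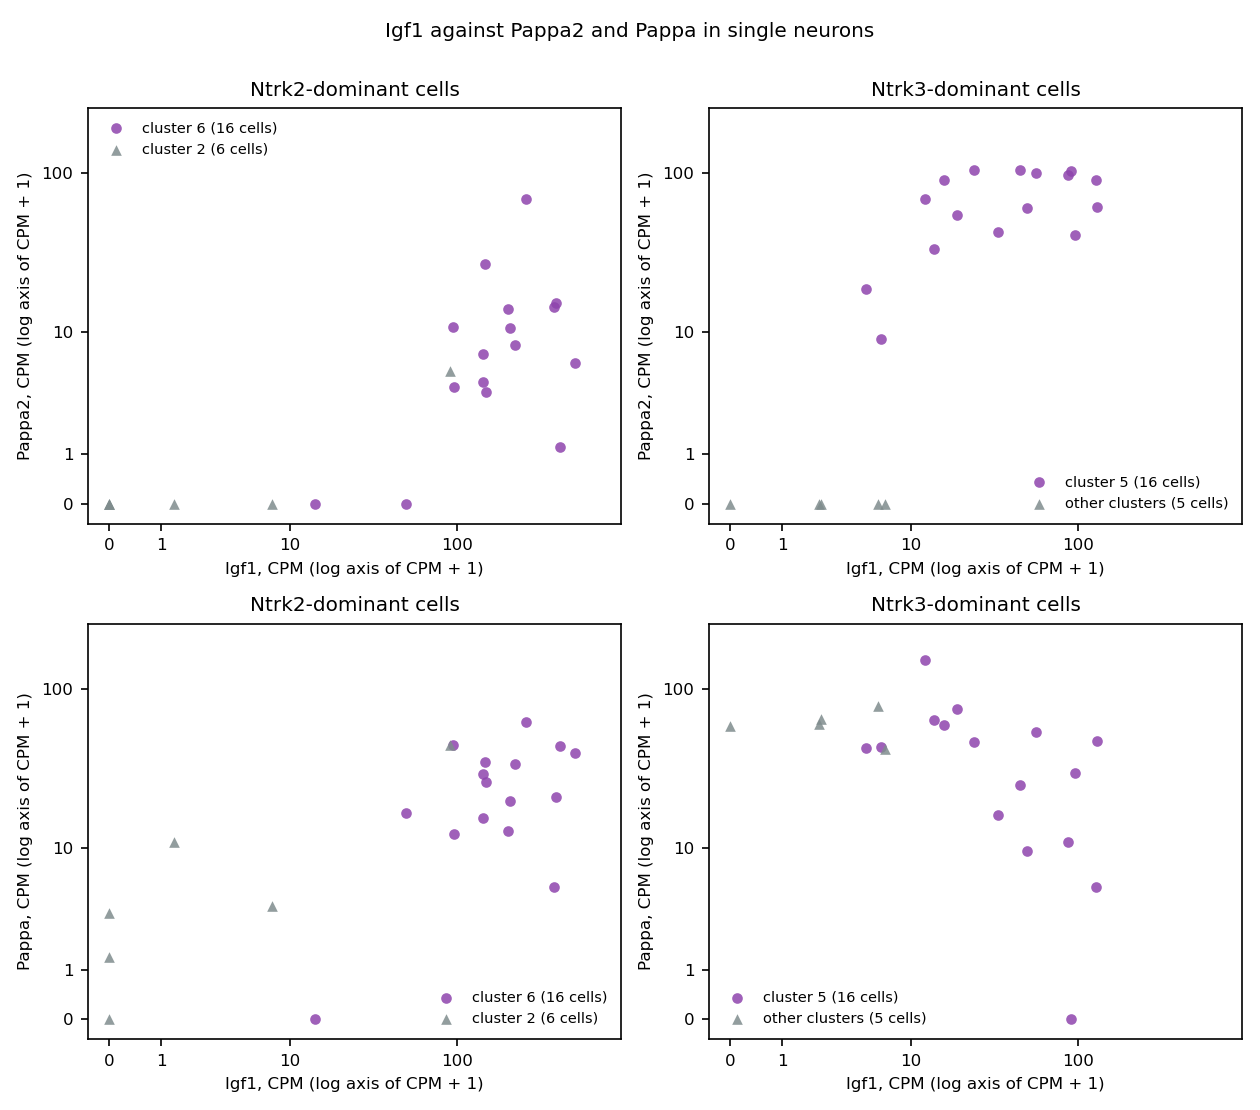
CPM of Igf1 (horizontal axis, log scale of CPM + 1) against Pappa2 and Pappa (vertical axes, log scale of CPM + 1) in each Ntrk2-dominant (left) and Ntrk3-dominant (right) cell, with circles for the 16 cells of each class's main cluster and triangles for its other cells. The triangles lie mostly at low Igf1 and Pappa2, and Igf1 with Pappa2 has a Spearman correlation of 0.72 over each whole class but 0.40 and 0.41 among the circles.

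Genes whose levels were most like a member's across 150 cells were taken from 17006 genes by Spearman correlation. For Igf1 they were Aldh1a7 (0.66), Lancl3 (0.65) and Fam163a (0.63), and for Pappa2 they were Lancl3 (0.70), Mdga1 (0.68) and Skor2 (0.65), so 1 gene was shared. Igfbp2 was most like Ptger3 (0.73), Atp1b3 (0.69) and Prkch (0.64), and Pappa most like Sgcz (0.66). Igfbp4 was most like Cmtm5 (0.82), Sostdc1 (0.82) and Apoe (0.81), of which Apoe is in the satellite glia list. The closest gene to Igf1r, Pgm2l1, reached only 0.46, and that to Igf2r, Sptan1, 0.45.

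Among the other genes of the pathway named by rule, the adaptor gene Irs2 differed in median between the Nefh-high classes described. Its median was 99.2 CPM in Ret-dominant cells, where 25 of 25 reached 10 CPM, 64.9 in Ntrk3-dominant and 41.1 in Ntrk2-dominant cells. The adaptor gene Irs1 reached 10 CPM in 3 cells. Insr, the insulin receptor, had class medians of 7.29 to 26.1 CPM, and Igf2, the second ligand, of 0 to 10.4 in the 6 named classes described. Igfbp7 had a median of 21.5 CPM in Calca-positive cells.

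To ask whether the members differed with skin type, cells were pooled into 1 glabrous and 1 hairy sum in each of 7 litters with at least 2 cells of both, and hairy was compared with glabrous by edgeR's quasi-likelihood test with the litter as a block. Over all neurons, 12 of 12852 genes passed a Benjamini-Hochberg adjusted p of 0.05, which is 0.0934%. Of the 10 members 8 passed the filter on low counts and were tested, and 0 were called, with 4 at an unadjusted p under 0.05, where 1277 of all genes tested (9.94%) were at that level. The groups overlapped for all 10 members, where 0.319% of genes had groups that did not. The 8 log2 differences (hairy minus glabrous) had 3 positive and 5 negative signs and a median of -0.19, against -0.02 over all genes tested.

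Pappa had the smallest p of the members. Glabrous sums held 4.77 CPM (L), 30.8 (H), 30.9 (P_Q), 41.2 (E_F_G), 41.6 (C_D), 46.2 (K) and 54.2 (O), and hairy sums 3.85 (O), 5.26 (K), 7.79 (L), 8.93 (H), 10.2 (C_D), 13.1 (P_Q) and 32.9 (E_F_G). Pappa was lower in hairy cells in 6 of 7 litters, all but L, whose glabrous sum held 3 cells. The means were 35.7 ± 15.9 and 11.7 ± 9.84 CPM (SD, n = 7 each), and the log2 difference was -1.65 ± 0.47 (SE), with an edgeR adjusted p of 0.276. DESeq2 gave Pappa an adjusted p of 0.0134. Within plates the Pappa difference was -1.31 (plate 1) and -1.85 (plate 2). Classes were uneven: the 21 Ntrk3-dominant cells (Pappa median 46.7 CPM) were glabrous, and 14 of 20 Tafa4-positive cells (median 0) were hairy. Over 18 alternatives, among them no Tafa4-positive cells and class in the model, the Pappa difference ran from -1.93 to -1.12.

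Igfbp2 and Igfbp5 were higher in hairy cells in 6 of 7 litters each, with C_D the exception for both. Igfbp2 held 20.7 ± 12.3 CPM (SD) in the glabrous sums and 70.5 ± 35.8 in the hairy ones, a log2 difference of 1.78 ± 0.72 (SE) with an edgeR adjusted p of 0.461. Without Tafa4-positive cells the Igfbp2 difference was 0.06, with an adjusted p of 0.991. Igfbp5 held 6.48 ± 4.49 and 22.9 ± 15.2 CPM, a log2 difference of 1.70 ± 0.56 (SE) with an edgeR adjusted p of 0.347, and 0.0336 by DESeq2. Within plates the Igfbp5 difference was 0.61 (plate 1) and 2.99 (plate 2), and for Igfbp2 it was 0.96 and 2.71, so both were larger on plate 2, where 35 of 45 hairy cells lay.

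For the ligand and its receptor no difference passed the test. Igf1 held 38.8 ± 32.5 CPM (SD) in the glabrous sums and 16 ± 28.6 in the hairy ones and was lower in hairy cells in 5 of 7 litters, with a log2 difference of -2.15 ± 1.54 (SE) and an edgeR adjusted p of 0.693. Leaving out single litters moved that difference from -2.99 (without C_D) to -1.41 (without E_F_G). Igf1r held 15.4 ± 4.4 and 27.3 ± 18.8 CPM, a difference of 0.65 ± 0.28 with an edgeR adjusted p of 0.492, and 1 hairy sum, that of litter L at 69.4 CPM, stood far above the next at 24.2. The log2 differences were -0.28 for Igf2r, -0.11 for Igfbp3 and -0.46 for Igfbp4.

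Pappa2 and Stc2 did not pass the filter. Pappa2 ran from 0 to 43.3 CPM in glabrous sums, with 720 counts in all, and from 0 to 2.4 CPM in hairy sums, with 5 counts and 5 of 7 sums at 0. With no filter edgeR gave it a log2 difference of -5.94 ± 0.91 (SE) with an adjusted p of 1.04e-05, where 342 of 32962 genes were called. In Nefh-high neurons edgeR with no filter gave -4.79 with 3.72e-06, where 226 of 31432 genes were called. No hairy cell was of the Ntrk3-dominant class in which Pappa2 was highest, and the members were selected with that class in view. Skin type and class therefore cannot be told apart in these values, and the p-values are no test of skin type alone. Median summed markers of other cells were 1463 CPM (Schwann cells) and 174 (fibroblasts) in glabrous cells and 3074 and 431 in hairy cells, and their part in these differences was not tested.

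**Figure D5:**
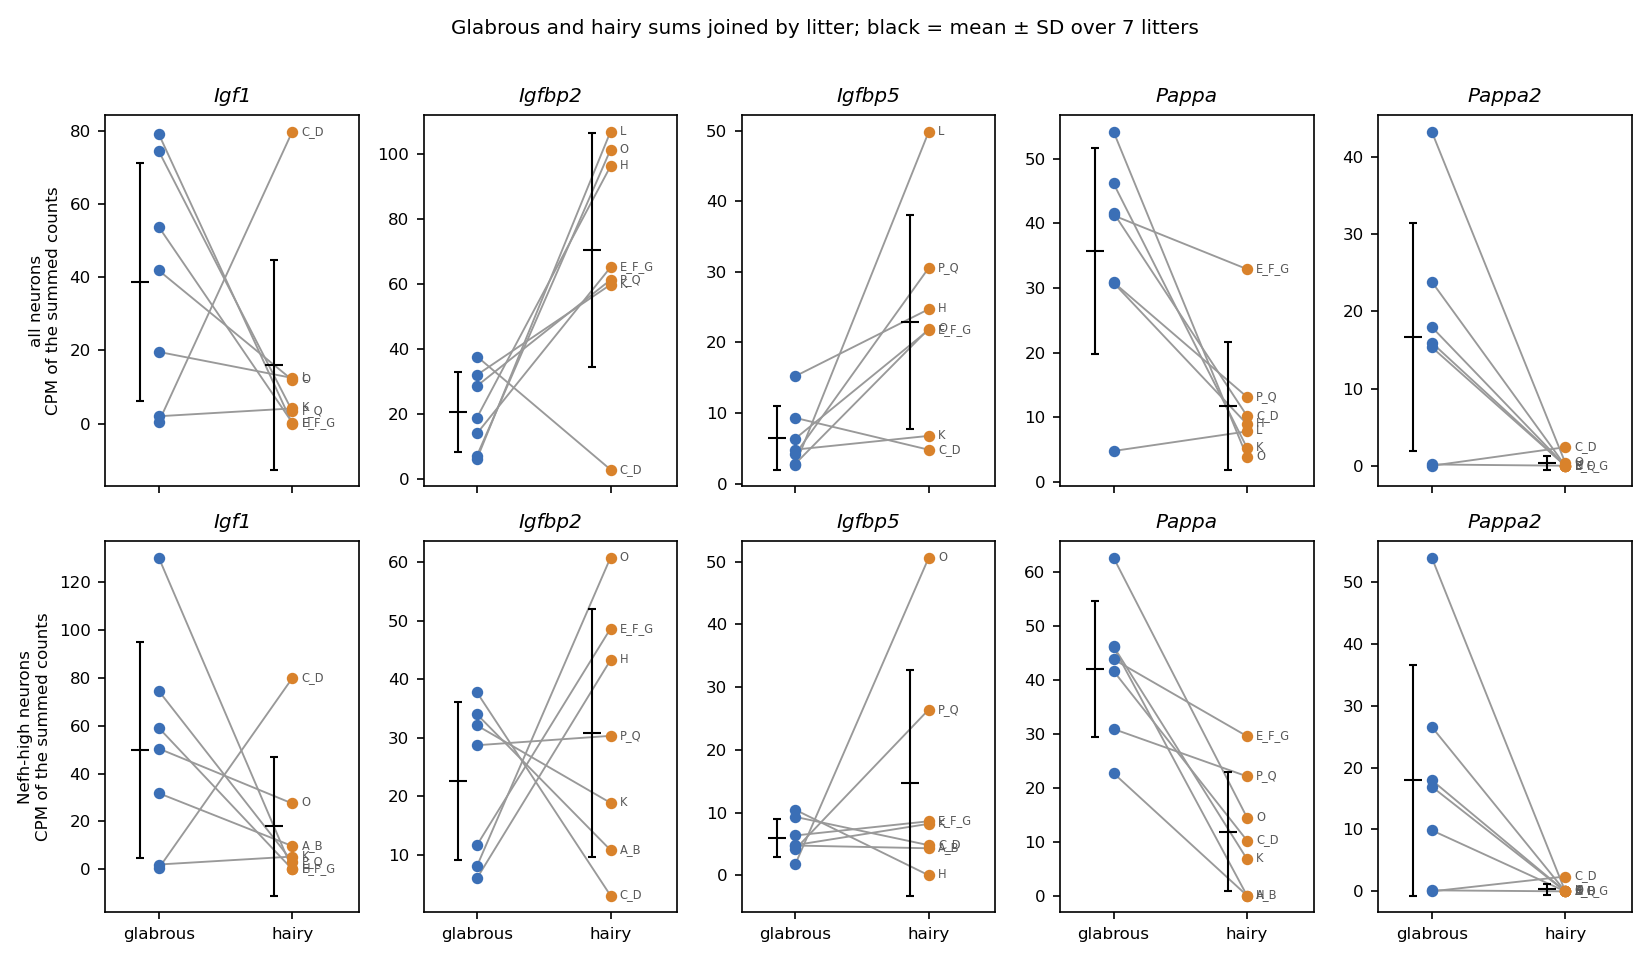
CPM of counts summed per litter and skin type (vertical axis) for Igf1, Igfbp2, Igfbp5, Pappa and Pappa2 over all neurons (top) and Nefh-high neurons (bottom), with a line joining the 2 sums of each of 7 litters and the mean ± SD in black. Over all neurons Pappa is lower in the hairy sum in 6 of 7 litters, and Igfbp2 and Igfbp5 are higher in 6 of 7.

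With the comparison held to Nefh-high neurons, in 7 litters with at least 1 such cell of each skin type, edgeR called 0 of 12087 genes (0%). DESeq2 called 89, and 729 (6.03%) had an unadjusted p below 0.05 in edgeR. The groups overlapped for all 10 members, where 0.24% of genes had groups that did not. Pappa was lower in hairy cells in 7 of 7 litters. Its glabrous sums held 22.7 CPM (H), 30.9 (P_Q), 41.6 (C_D), 43.8 (E_F_G), 46.04 (A_B), 46.2 (K) and 62.7 (O), and its hairy sums 0 (A_B and H), 6.76 (K), 10.2 (C_D), 14.5 (O), 22.1 (P_Q) and 29.5 (E_F_G). The means were 41.99 ± 12.7 and 11.9 ± 11.1 CPM (SD, n = 7 each), and the log2 difference was -2.04 ± 0.56 (SE), with an edgeR adjusted p of 0.555 and a DESeq2 adjusted p of 0.00481. Both hairy sums at 0 and that of O were single cells, and the groups overlapped.

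Within classes the Pappa medians in glabrous and hairy cells were 26.6 and 1.37 CPM for Ntrk2-dominant, 24.99 and 0 for Ret-dominant and 20.4 and 0 for Tafa4-positive cells. Of the 4 classes described with 5 or more cells of both skin types, the Calca-positive class had the other order, 0 and 11.3 CPM. The skin types sat in different unsupervised clusters in part. Of Tafa4-positive cells, 4 of 6 glabrous ones were in a cluster where they had a Pappa median of 23.4 CPM and 13 of 14 hairy ones in another where theirs was 0, as it was in the 2 glabrous cells there. Of Ntrk2-dominant cells, 14 of 17 glabrous ones were in the main cluster and 3 of 5 hairy ones outside it. Skin type and cluster therefore cannot be told apart in the values of these 2 classes. Of Ret-dominant cells, 11 of 18 glabrous and 5 of 7 hairy ones shared a cluster, where the Pappa medians were 4.52 and 0 CPM. In another cluster 3 glabrous Ret-dominant cells had a median of 80.7 CPM and 2 hairy ones of 52.7. The part of cluster in the Ret-dominant difference was not tested. With class and litter both in the model, the Nefh-high difference for Pappa was -2.05 with an edgeR adjusted p of 0.130.

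For the other tested members the differences in Nefh-high neurons did not pass the test. The log2 differences were -1.87 ± 1.47 for Igf1, 0.79 ± 0.82 for Igfbp5, 0.44 ± 0.77 for Igfbp2, 0.20 ± 0.30 for Igf1r, 0.09 ± 0.45 for Igfbp3, -0.36 ± 0.33 for Igf2r and -0.44 ± 0.32 for Igfbp4 (SE), and every edgeR adjusted p was 0.555 or more. Without single litters the Igf1 value ran from -2.78 (without C_D) to -1.19 (without E_F_G) and the Igfbp5 value from 0.20 (without O) to 1.25 (without H). Of the other pathway genes 49 were tested, 20 positive and 29 negative, with 0 called and 7 at an unadjusted p under 0.05 (against 6.03% of all genes). Over all neurons the same 49 gave 25 positive and 24 negative, 0 called and 3 at an unadjusted p under 0.05 (against 9.94% of all genes), of which Irs2 had the smallest adjusted p (log2 -1.07 ± 0.25 SE, adjusted p 0.186 by edgeR).

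Age was compared in glabrous sums between 2 litters at day 4 and 7 litters at day 5. EdgeR called 0 of 15185 genes (0%), DESeq2 called 3, and 422 (2.78%) had an unadjusted p below 0.05 in edgeR. The groups overlapped for all members, where 4.66% of genes had groups that did not. Of 9 members tested, 6 differences (day 5 minus day 4) were positive and 3 negative, with a median log2 of 0.20 against 0.03 over all genes. The largest were 0.97 ± 0.63 for Igfbp5 and 0.95 ± 1.42 for Pappa2 (SE), and every edgeR adjusted p was 1.0. Igf1 held 1.99 and 74.5 CPM in the 2 day 4 litters, both inside the 0.437 to 79.2 CPM of the day 5 litters, so a difference with age was not detectable with these litters.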

How the data were processed

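Each sample was 1 cell, and the deposited values are Salmon's expected counts for each gene, in whole numbers, made with FastQC, cutadapt, Salmon and mm10 per the submitters' processing notes. Versions, the annotation and any length scaling are not stated there. Libraries were made with Nextera XT after 18 amplification cycles per the labels' protocols. CPM used each cell's or sum's raw total, log2 levels a pseudocount of 1 CPM. Sums over the cells of a litter and skin type were fitted in R 4.3.3 with edgeR 4.0.16 and limma 3.58.1: TMM, filterByExpr, quasi-likelihood F-tests, Benjamini-Hochberg adjusted p of 0.05 over all genes tested. DESeq2 1.42.0 was an alternative. The SE is the log2 difference over the square root of F.

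The litter was a block since both skin types came from the same litters per the labels. Centred glabrous and hairy sums of a litter correlated by -0.0948 to 0.325 over 9975 genes (median 0.0855, 3 of 7 above 0.1), and by -0.213 to 0.232 in Nefh-high neurons (3 of 7 above 0.1). On simulated data edgeR recovered 24.7% of changes of 1 log2 unit and 75% of those of 2 units over all neurons (12852 genes). The recovered shares were 32.9% and 84.7% in Nefh-high neurons (12087 genes) and 7.55% and 47.5% for age (15185 genes). More genes were called on the simulated data (126, 146 and 90) than on the real data (12, 0 and 0). An adjusted p is easier to pass among many changed genes, so these shares may be too high for the real data. Depth per cell was 395811 to 1053854 counts, and shares and zeros cover counting error only. Clusters were made with scanpy 1.11.5 and igraph 0.11.9 without the members and the 56 other pathway genes. Tables and plots were made in Python 3.11.15 with pandas 2.3.3, numpy 2.4.6, matplotlib 3.10.9 and scipy 1.17.1. Positions are from GENCODE on GRCm38. Named genes were the 10 members, 7 pathway genes (Igf2, Insr, Irs1, Irs2, Igfbp6, Igfbp7, Stc1), any pathway gene past the threshold, and the 3 most alike genes per member. The members, lists and class rules were chosen with earlier results of these data known. The cell labelled with both skin types entered no comparison. A further class of Nefh-high cells is not reported here, though its cells stay in the sums and in values over all cells.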

Additional observations from a re-analysis of the deposited data

Results flagged for a closer look

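In 16 of 97 groups of litters examined, the group held a highest or lowest litter that stood apart from the others by Dixon's ratio on log2(CPM + 1). All members but Stc2 in each named class described and each side of each comparison were examined, chance flags about 1 in 20 groups, and several of these values are single cells.

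In hairy sums over all neurons, Igf1r was highest in litter L at 69.4 CPM (next 24.2), Igfbp2 lowest in C_D at 3 (next 59.8) and Pappa2 highest in C_D at 2.4 (next 0.385). In glabrous sums Pappa was lowest in L at 4.77 CPM (next 30.8), a value that also stood apart among the day 5 litters. Among those litters Igf1 was lowest in C_D at 0.437 CPM (next 19.6). In Nefh-high neurons, Igf1r was lowest in the hairy sum of H at 8.37 CPM (next 16.2), and Pappa2 was highest in the hairy sum of C_D at 2.4 with all others at 0.

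By class, Igf1 in Ntrk2-dominant cells was lowest in L at 0 CPM (next 79.8), and Igfbp3 in Ntrk3-dominant cells was lowest in H at 0 (next 7.03). In Ret-dominant cells Pappa was lowest in A_B at 0 CPM (next 11.2) and Pappa2 highest in M at 18.5 (next 0.379). In Mrgprd-positive cells litter P_Q was lowest for Igf1r, Igfbp3 and Pappa, at 0 CPM each (next 12.3, 9.14 and 19.9), and H was lowest for Igfbp4 at 2.74 (next 66.8).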

How the results depend on the processing

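The 12 genes called of 12852 over all neurons became 337 of 12852 with DESeq2 and 342 of 32962 with no filter on low counts. They became 11 with no replicate block, 1 with class in the model, 1 with sums of at least 1 cell, and 0 without Tafa4-positive cells and within plate 1 or plate 2. Leaving out each litter gave 0 to 15, with 0 without K, O or P_Q, 1 without L, 2 without E_F_G and 7 without H. The 0 called of 12087 in Nefh-high neurons became 89 of 12087 with DESeq2 and 226 of 31432 with no filter. They became 7 with no replicate block, 5 with class in the model, 7 with Nefh of at least 800 CPM, and 0 to 2 without single litters. The 0 for age became 3 with DESeq2 and 0 to 1 without single litters.

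Pappa stayed negative in all 18 alternatives over all neurons and all 19 in Nefh-high neurons. It passed 0.05 with DESeq2 and with no filter (adjusted p 0.00284 over all neurons and 4.26e-06 in Nefh-high neurons), as did Igfbp5 over all neurons in both (0.0257 with no filter). Igfbp2 over all neurons (0.00499) and Igf1 in Nefh-high neurons (0.0326) passed with no filter. The cause was not tested. With class in the model, Igfbp5 in both comparisons and Igf1 over all neurons did not pass the filter, nor did Pappa2 for age in hairy cells.

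Signs turned in some alternatives. Over all neurons Igf2r was 0.027 with sums of at least 1 cell, Igfbp4 0.11 within plate 2, and Igfbp3 0.12 with no replicate block, 0.55 within plate 2, 0.25 with class in the model and -0.39 to 0.24 without single litters. In Nefh-high neurons the values were -0.23 (Igf1r), -0.60 (Igfbp3) and -0.74 (Igfbp5) within plate 1 and 0.080 (Igfbp4) within plate 2. They were -0.29 (Igfbp2) and -0.039 (Igfbp3) with at least 2 cells, 0.082 (Igf2r) and 0.070 (Igfbp4) with Nefh of at least 800 CPM, and -0.0097 to 0.97 (Igfbp2) and -0.13 to 0.46 (Igfbp3) without single litters. For age, Igfbp2 was 0.24 with at least 1 cell and 0.34 in hairy cells, where Igfbp4 was -0.50 and Pappa 0.49. Without single litters the ranges were -0.76 to 4.37 (Igf1), -0.041 to 0.44 (Igf2r), -0.55 to 0.082 (Igfbp2), -0.31 to 0.21 (Igfbp3), -0.19 to 0.51 (Igfbp4), -0.40 to 0.27 (Pappa) and -0.044 to 6.52 (Pappa2).

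Differences between the litter means of Ntrk2-dominant and Ntrk3-dominant cells were also compared, over all litters of each class and not only those with both. They moved by at most 1 SD of the same-litter differences in 162 of 162 alternatives. That SD was wide (0.82 log2 units for Igf1r to 3.75 for Igf1), so smaller moves went unmarked. The sign of the difference turned in 5 of 18 for Igf1r and Igfbp2, 3 of 18 for Igf2r and 4 of 18 for Igfbp3 and Igfbp4. Hairy sums held 1 to 5 cells in 6 of 7 litters, which limits the skin comparisons.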

Other observations

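The cell labelled with both skin types, a Ret-dominant cell of litter A_B, held 58.9 CPM of Pappa, 31.3 of Pappa2, 33.8 of Igf1r, 20.1 of Igf2r, 17.6 of Igfbp4 and 6.27 each of Igfbp2 and Igfbp3. Igfbp5 was at 2.51 CPM, and Igf1 and Stc2 had no count.

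The 6 Nefh-low cells without Tafa4, Mrgprd or Calca at 100 CPM held high levels of some IGF genes. Igf1 reached 10 CPM in 4 of them with a median of 65.9 CPM, Igfbp4 had a median of 428 and Igfbp3 of 29.99, and the second ligand gene Igf2 a median of 88.3 CPM. Their summed markers had medians of 3563 CPM for satellite glia, 8027 for Schwann cells and 3003 for fibroblasts, each the highest of the classes described, and blood markers reached 247269 CPM in 1 cell. Their 7 sensory neuron markers summed to a median of 808 CPM, against medians of 5721 to 9383 in the named classes. By that median these cells carried little of the RNA that marks neurons. The lowest cell was at 610 CPM among Mrgprd-positive and at 766 among Calca-positive cells, so named classes also held cells this low. The part of glia, Schwann cells, fibroblasts and blood in the IGF levels was not tested.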
